A study of Homo sapiens with 6 samples.

Results

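Iron, haem and NRF2 response genes are described here at the level of chromatin, through 7 hg19 windows, each named for 1 gene: HMOX1, NFE2L2, SLC40A1, TFRC, SQSTM1, FTH1 and SLC7A11. The members are all deposited H3K27ac peaks that touch these windows, 39 of 56420 peaks in M2 macrophages and 32 of 31444 peaks in THP-1 cells. H3K27ac, acetylation of histone H3 at lysine 27, is found at promoters and enhancers in use. THP-1 is a monocytic leukaemia line, labelled as human monocytes. The macrophages are labelled M2, the name for the alternatively activated state. The labels give the same culture conditions for both, RPMI medium with serum and antibiotics, and name no polarising agent, time or cell of origin for the macrophages. Each cell type had 1 library for H3K27ac, 1 for the factor YY1 and 1 for input, and the values here come from the H3K27ac peaks. Since each cell type is represented by a single library, differences between them have no replicate check, and no p-value is given.

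As background, NRF2 (the product of NFE2L2) is a transcription factor that the adaptor KEAP1 normally sends to degradation. Oxidants and electrophiles release it, and with small MAF proteins it binds antioxidant response elements near genes of glutathione synthesis, haem breakdown and iron storage. Macrophages take up aged red cells, open the haem ring with haem oxygenase 1 (HMOX1), keep the iron in ferritin (heavy chain FTH1) or return it through ferroportin (SLC40A1), and take up transferrin iron through TFRC. Several mRNAs of iron traffic, among them those of FTH1, SLC40A1 and TFRC, are also controlled after transcription, on which histone marks are silent.

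More of the HMOX1, FTH1 and SLC7A11 windows lay in H3K27ac peaks in M2 than in THP-1 cells, the NFE2L2 and SQSTM1 windows differed less, and the TFRC window held more in THP-1 cells. The whole M2 list also covered 2.19 times the length of the THP-1 list. Among 50 kb genome tiles with peaks in both lists, 81.3% had a lower M2 to THP-1 ratio than HMOX1. The share was 84.6% for FTH1, 99.1% for SLC7A11, 39.4% for NFE2L2, 34.6% for SQSTM1 and 9.59% for TFRC. Windows and tiles differ in length. The SLC40A1 window was nearly bare in both. The chromatin came from bulk cells, so more cells with the mark and more of it per cell cannot be told apart. Where the 2 cell types shared a site with close summits, the signal at the summit, local background included, was mostly within 2 times of each other. Most M2 peaks at these sites were the wider ones. Both traits also held for such sites genome-wide, where 9.31% and 14.2% differed by at least 2 times toward M2 and THP-1. The median ratio of M2 to THP-1 width there was 1.39. The windows also hold parts of other genes. By the RefSeq gene order, HMOX1 neighbours MCM5, NFE2L2 neighbours HNRNPA3, FTH1 neighbours BEST1, and SQSTM1 neighbours LTC4S, MGAT4B and MRNIP. No hg19 annotation was used, so a peak belongs to a window and not to a promoter, exon or intron.

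Promoter sequence is shown for NFE2L2, the regulator of the group, and for SLC40A1 and TFRC, the iron exporter and importer, whose windows held the fewest peaks in M2 and more peak length in THP-1 than in M2 cells, respectively. These are the 250 bases before an annotated start in RefSeq (GRCh38.p14, a different build from that of the peaks). RefSeq promoters were matched for 4 of the 7 genes, these 3 and SQSTM1, and not for HMOX1, FTH1 and SLC7A11. Capitals mark the GC box GGGCGG and the TATA box TATAAA, on either strand.
NFE2L2 (chr2:177264728-177264977, minus strand): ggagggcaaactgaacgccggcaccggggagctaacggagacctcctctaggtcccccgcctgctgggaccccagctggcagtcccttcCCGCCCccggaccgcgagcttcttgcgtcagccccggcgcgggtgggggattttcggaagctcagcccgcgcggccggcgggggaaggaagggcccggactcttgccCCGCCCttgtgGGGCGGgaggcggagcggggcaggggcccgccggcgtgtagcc
SLC40A1 (chr2:189580787-189581036, minus strand): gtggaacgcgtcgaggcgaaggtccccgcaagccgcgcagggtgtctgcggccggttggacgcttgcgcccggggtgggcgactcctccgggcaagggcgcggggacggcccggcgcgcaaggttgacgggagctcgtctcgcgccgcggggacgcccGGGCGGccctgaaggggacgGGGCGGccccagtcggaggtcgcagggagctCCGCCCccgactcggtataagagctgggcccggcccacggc
TFRC (chr3:196082091-196082340, minus strand): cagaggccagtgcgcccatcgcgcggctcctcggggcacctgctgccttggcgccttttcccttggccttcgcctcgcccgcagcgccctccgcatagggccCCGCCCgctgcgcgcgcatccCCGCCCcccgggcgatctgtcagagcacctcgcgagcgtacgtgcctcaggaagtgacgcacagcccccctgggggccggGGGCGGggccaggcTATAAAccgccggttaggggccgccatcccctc
All 3 sequences hold 3 GC boxes each, a motif found in 42.6% of 35116 RefSeq promoters of this length, and have a GC content of 74.8% (NFE2L2), 77.2% (SLC40A1) and 74.4% (TFRC) against a median of 58% over all. TFRC alone among them has a TATA box (10.7% of all promoters). The core of the antioxidant response element, searched as TGACNNNGC, is in 10.9% of all promoters. It is in none of the 7 entries of NFE2L2, SLC40A1, TFRC and SQSTM1. This says only that these letters are not in these windows.

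Several measures are used below. Covered length is the length of a window that lies inside peaks. The authors' fold enrichment and -log10 q are each peak's own values and were ranked only within a list. Signal is the number of sequenced fragments over the summit, recovered from fold enrichment and p-value and scaled as in peak calling. It is given in multiples of the genome-wide level of the list, with local background not taken off. Summits in the windows held 11 to 308 fragments in M2 (median 75) and 19 to 199 in THP-1 cells (median 67). Intervals are exact 95% intervals that cover counting error only. For 1 TFRC peak of THP-1 the fragments could not be settled.

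**Figure D1:**
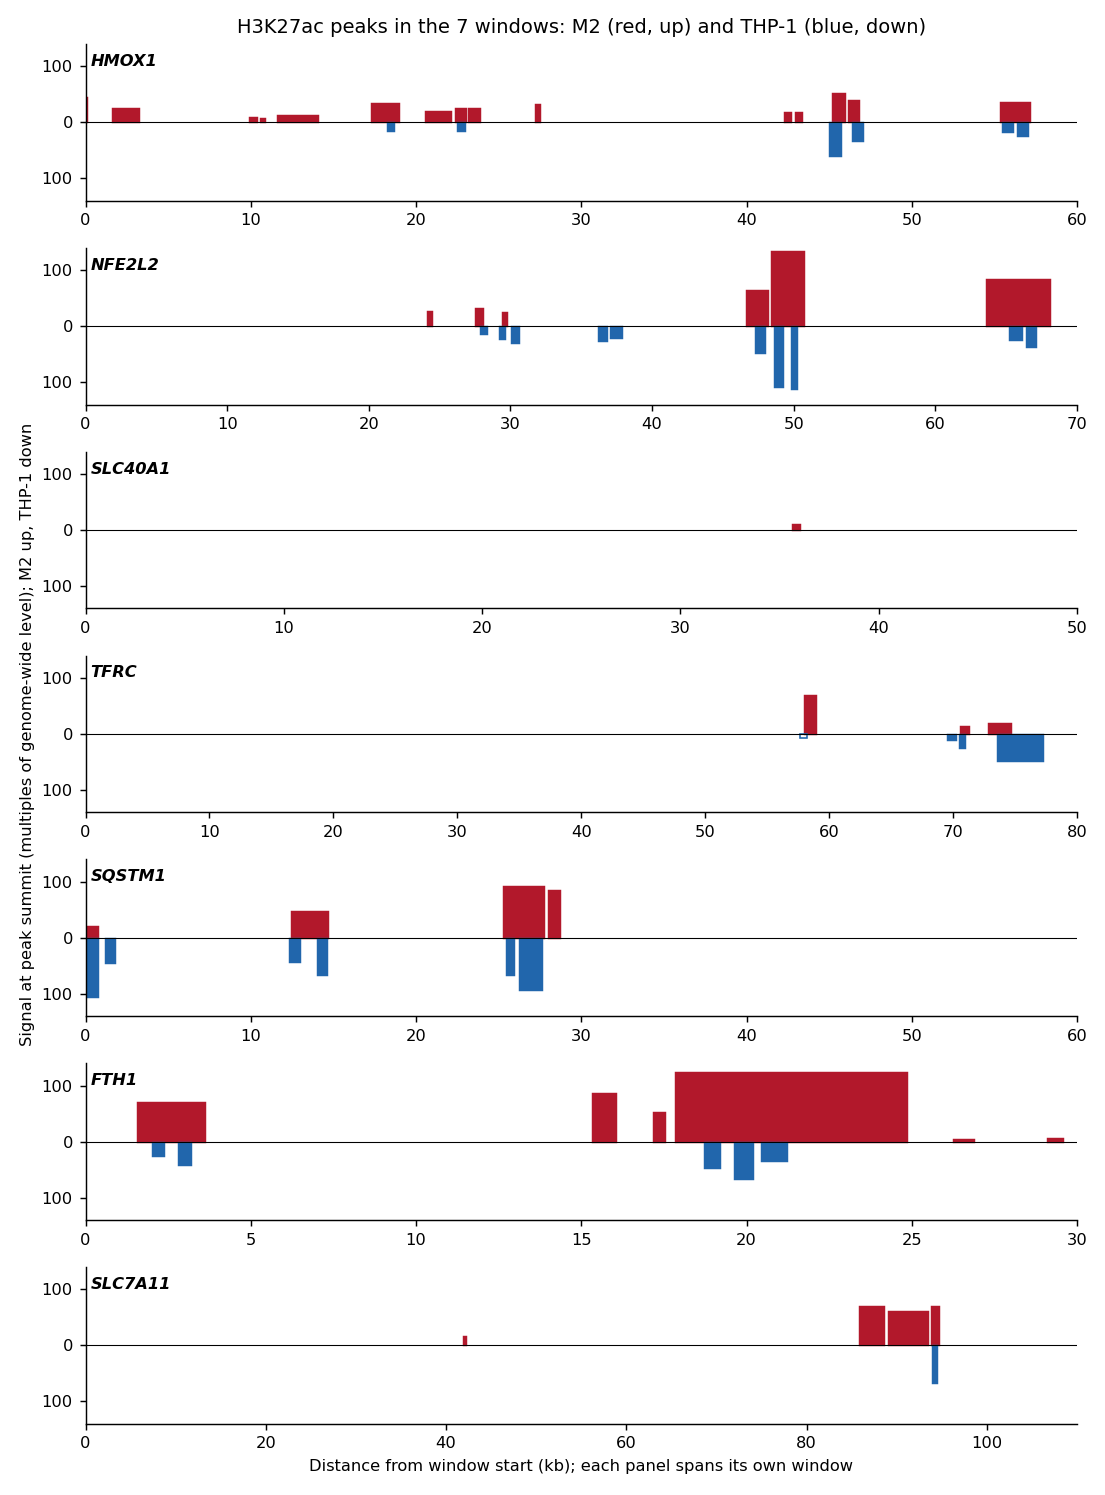
Peaks in the 7 windows. The horizontal axis is the distance from the start of the window in kb, the vertical axis the signal at the summit in multiples of the genome-wide level, with M2 bars up and THP-1 bars down, and the width of a bar is the width of the peak within the window. The open bar in the TFRC panel marks a THP-1 peak whose signal is not known. The widest bar is the 7028 bp M2 peak of the FTH1 window, and in the SLC40A1 window there is 1 low M2 bar.

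NFE2L2 itself, whose window spans 178.08 to 178.15 Mb of chromosome 2, carried H3K27ac peaks in both cell types. Its 6 M2 peaks covered 9665 bp and its 10 THP-1 peaks 6484 bp, a ratio of 1.49. The highest signal of any member in either list lay in this window. In M2 cells it was at a 2377 bp peak from 178128374 to 178130750, with 308 fragments and 133.8 times the genome-wide level, higher than 99.6% of all M2 peaks. Inside the same stretch THP-1 had peaks at 178128575 to 178129271 and at 178129793 to 178130217, with 192 and 199 fragments and signals of 108.8 and 112.7. Their fold enrichment was only 1.54 and 1.81, as the background at these summits was 70.2 and 61.9 times the lowest of the list, against 37.2 times at the M2 summit.

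The site of greatest contrast in the NFE2L2 window was at its far end. There a 4540 bp M2 peak (178143554 to 178148093, 12.7-fold, -log10 q 118.8) was wider than 98.9% of the M2 list. THP-1 cells had 2 peaks of 930 and 739 bp below it. The M2 summit held 195 fragments and the THP-1 summit 31 bp away held 42, a signal of 84.7 against 23.8 and a ratio of 3.56 (2.54 to 5.10). The 739 bp peak was the leading THP-1 peak of the window, with its summit 813 bp from the M2 summit. It held 67 fragments and a signal of 38.0, and against it the ratio was lower, 2.23 (1.68 to 2.99). The opposite was seen between 178110014 and 178117875, where 3 THP-1 peaks with signals of 30.03, 26.06 and 20.96 met no M2 peak. They lay 276, 6438 and 7265 bp from the nearest one. They are 3 of the 5 THP-1 peaks over all windows that met no M2 peak, a state that 24.7% of the whole THP-1 list shared.

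SQSTM1 encodes p62, an autophagy adaptor that binds KEAP1 and so frees NRF2. Its window on chromosome 5 (179.22 to 179.28 Mb) was covered to 6238 bp in M2 (4 peaks) and 4616 bp in THP-1 cells (6 peaks), a ratio of 1.35. At the leading M2 peak (179245246 to 179247765, -log10 q 63.7) the M2 summit had 213 fragments and a signal of 92.5. A THP-1 summit 38 bp away had 164 fragments and a signal of 92.9, a ratio of 1.00 (0.81 to 1.23). Background at this THP-1 summit was 3.31 times that at the M2 summit, each over the lowest of its list. The fold enrichment was 1.56 in THP-1 and 5.05 in M2. Right beside the leading M2 peak lay another of 766 bp, with 195 fragments and a signal of 84.7. It met no THP-1 peak, and the nearest was 371 bp away. Its background was 31.7 times the lowest and its fold enrichment 2.65, above that of only 2.76% of the M2 list. At 179232440 to 179234645 the summits were 20 bp apart and the signal was 47.4 in M2 and 66.9 in THP-1 cells, a ratio of 0.71 (0.54 to 0.93).

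The edge of the SQSTM1 window gave the greatest THP-1 excess of all sites. A 2086 bp THP-1 peak (179218696 to 179220781), which lies mostly outside the window on the side of LTC4S, had 186 fragments and a signal of 105.4. The M2 peak there was 802 bp wide, with 48 fragments and a signal of 20.9, a ratio of 0.20 (0.14 to 0.27). Which gene this site serves is not known from these data, and with whole peaks counted the ratio of covered length for SQSTM1 came to 1.06.

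SLC7A11, the light chain of the cystine importer that feeds glutathione synthesis, had the highest ratio of M2 to THP-1 covered length among the 6 windows with peaks in both lists. Its window on chromosome 4 (139.07 to 139.18 Mb) held 4 M2 peaks over 8521 bp and 1 THP-1 peak of 541 bp, a ratio of 15.8. This is higher than in 99.1% of the 13458 genome tiles with peaks in both lists, whose median ratio was 1.85, although the tiles are 50 kb and this window is 110 kb long. The single THP-1 peak (139163881 to 139164421) lay inside an M2 peak of 971 bp. There the signal was nearly alike, 163 fragments and 70.8 in M2 against 119 fragments and 67.4 in THP-1 cells, a ratio of 1.05 (0.82 to 1.34). Background at this THP-1 summit was 3.27 times that at the M2 summit, each over the lowest of its list.

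The difference at SLC7A11 lay beside that shared site. A 4418 bp M2 peak (139159027 to 139163444, 143 fragments, signal 62.1) ended 436 bp before the THP-1 peak and was wider than 98.8% of the M2 list. Its fold enrichment was 2.89, above that of only 4.75% of the M2 list. Background at its summit was 21.2 times the lowest. The leading M2 peak, 2787 bp from 139155795 to 139158581, had 162 fragments, a signal of 70.4 and a -log10 q of 72.3. It was 5299 bp from any THP-1 peak. Together they form an M2 stretch of nearly unbroken H3K27ac next to a site that both cell types share. The fourth M2 peak, 345 bp wide with a signal of 17.4, lay apart from these.

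HMOX1 had the most M2 peaks of the group. In its window on chromosome 22 (35.75 to 35.81 Mb) 15 M2 peaks covered 14116 bp, 23.5% of the window, and 6 THP-1 peaks covered 3647 bp, 6.08%, a ratio of 3.87. Each of the 6 THP-1 peaks met an M2 peak. Of the 15 M2 peaks 9 met no THP-1 peak, beside 63.0% of the whole M2 list. The M2 peaks fell into 3 runs. The first run, 35748141 to 35777514, held 10 peaks with signals from 7.39 to 46.1. The 46.1 was that of the leading M2 peak, 1939 bp wide, whose summit lies 1.54 kb outside the window. The highest signal of the others was 34.3. In this run THP-1 cells had 2 small peaks and a further 1 beyond the window's edge. At these 2 sites the M2 signal was 34.3 against 14.7 (79 and 26 fragments, ratio 2.33, 1.48 to 3.78) and 24.8 against 15.3 (57 and 27 fragments, ratio 1.62, 1.01 to 2.66).

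The second run of the HMOX1 window was the one on which the cell types came closest. At 35795142 to 35795938 the M2 peak had 119 fragments and a signal of 51.7, and THP-1 cells had 107 fragments and 60.6, a ratio of 0.85 (0.65 to 1.12). At the neighbouring site the signals were 39.5 and 34.0, a ratio of 1.16 (0.83 to 1.64). THP-1 background there was 5.04 and 3.79 times that of M2, and the THP-1 fold enrichments were 1.93 and 1.75. MCM5, which codes for a replication helicase subunit, neighbours HMOX1, and the peaks could not be divided between these genes. In the third run, an M2 peak of 1810 bp (35805348 to 35807157) with a signal of 36.9 faced 2 THP-1 peaks with 17.6 and 24.4.

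**Figure D2:**
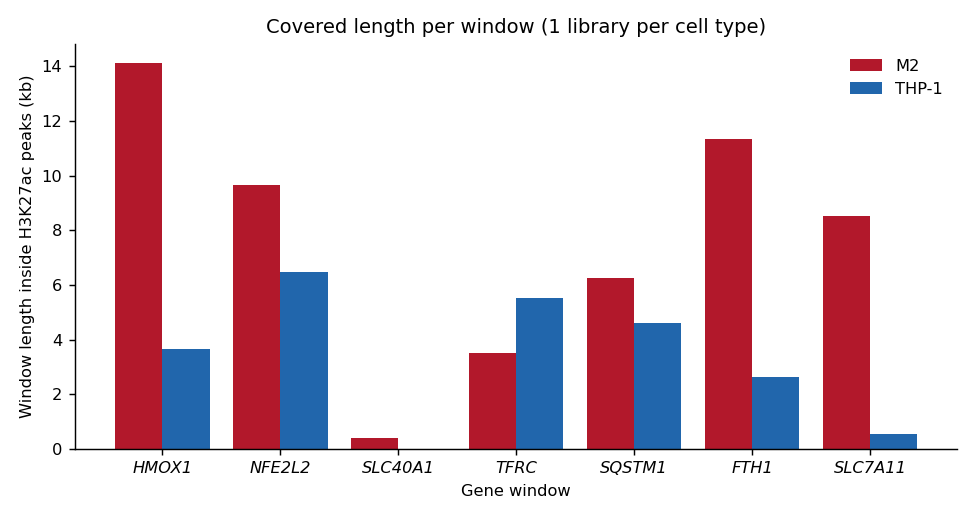
Covered length per window. Bars start at 0 and give the kb of each window inside H3K27ac peaks, red for M2 and blue for THP-1 cells, 1 library each with no error bar. M2 bars are the taller in 6 of 7 windows, and TFRC is the exception where M2 reached 3.51 kb and THP-1 5.53 kb.

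FTH1, the ferritin subunit that oxidises iron for storage, carried the M2 peak of highest fold enrichment and -log10 q among the 7 windows. Of its 30 kb window on chromosome 11 (61.72 to 61.75 Mb), 11328 bp or 37.8% lay inside 6 M2 peaks, and 2627 bp or 8.76% inside 5 THP-1 peaks, a ratio of 4.31. The M2 peak from 61737821 to 61744848 was 7028 bp wide and 15.1-fold enriched, with a -log10 q of 187.5. It was wider than 99.8% and of higher -log10 q than 99.9% of the M2 list. Below it lay 3 separate THP-1 peaks of 496, 574 and 786 bp. The M2 summit held 285 fragments and the THP-1 summit 52 bp away 119, a signal of 123.8 against 67.4 and a ratio of 1.84 (1.48 to 2.29).

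All THP-1 covered length of the FTH1 window lay inside M2 peaks. The second shared site, an M2 peak from 61721544 to 61723617, had 162 M2 and 73 THP-1 fragments at summits 124 bp apart, a ratio of 1.70 (1.28 to 2.28). M2 cells had 4 further peaks without a THP-1 counterpart. Their signals were 86.5 and 53.4 at 2 narrow peaks beside the widest one, where background was 46.5 and 27.3 times the lowest, and 4.78 and 6.08 at 2 weak ones. FTH1 has many processed pseudogenes, and reads from its exons can map to more than 1 place, which bears on any peak over them.

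SLC40A1 encodes ferroportin, the known iron exporter of vertebrate cells and a gene of iron-recycling macrophages. Its 50 kb window on chromosome 2 (190.41 to 190.46 Mb) held 1 M2 peak of 404 bp (190445607 to 190446010) and no THP-1 peak. The M2 summit had 23 fragments (14.6 to 34.5), a signal of 9.99, and its -log10 q of 6.04 was above that of only 21.2% of the M2 list. The nearest THP-1 peak was 116511 bp away. Peaks in M2 alone were found in 36.6% of the 24091 genome tiles of 50 kb with a peak in either list. This M2 peak was not retained in lists cut to equal length or at a -log10 q of at least 10.

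TFRC, the transferrin receptor, was the member with more covered length in THP-1 cells. In its window on chromosome 3 (195.75 to 195.83 Mb) 4 THP-1 peaks covered 5528 bp and 3 M2 peaks 3512 bp, 1.57 times as much in THP-1. THP-1 covered length was above that of M2 in 19.8% of tiles. The THP-1 peak from 195823511 to 195827285 was 3775 bp wide, wider than 99.1% of its list, and the M2 peak there was 1885 bp. Their summits, 21 bp apart, held 84 THP-1 and 46 M2 fragments, signals of 47.6 and 19.99 and a ratio of M2 to THP-1 of 0.42 (0.29 to 0.61). The M2 fold enrichment was nevertheless the larger, 9.93 against 4.40, with a background 6.70 times higher at the THP-1 summit.

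The next TFRC site, at 195820564 to 195821282 in M2, showed the same order, with 44 THP-1 and 34 M2 fragments and a ratio of 0.59 (0.37 to 0.95). With fragments not scaled between the libraries both TFRC ratios were still below 1. At the remaining shared site (195807994 to 195808901 in M2) the M2 summit had 158 fragments and a signal of 68.7, and the THP-1 number is the one not settled. No setting run brought the difference in TFRC covered length to 2 times.

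Over the 7 windows together, the covered length came to 53.8 kb for M2 and 23.4 kb for THP-1, a ratio of 2.29, beside 2.19 for the whole lists. Covered length was at least 2 times higher in M2 in 4 of 7 windows (HMOX1, SLC40A1, FTH1 and SLC7A11), against 62.1% of 24091 tiles, and at least 2 times higher in THP-1 in 0 of 7, against 10.9% of tiles. These shares of the 7 windows are near the background, and windows such as SLC7A11 and TFRC lay on either side of it. The units are unlike, as the windows are 30 to 110 kb around chosen genes. The tiles are 50 kb, and 36.6% of them held M2 peaks only. Of the M2 peaks 19 of 39 (48.7%) had no THP-1 peak in common, against 63.0% of the whole list, and the shared share was 51.3% (34.8 to 67.6). Of the THP-1 peaks 5 of 32 (15.6%) had no M2 peak in common, against 24.7%, and the shared share was 84.4% (67.2 to 94.7). The shared shares of the whole lists were 37.0% and 75.3%. The intervals take peaks as independent, although 15 of the 39 M2 peaks lie in the HMOX1 window, so they do not test a difference from the whole lists.

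Signal could be set side by side at 16 pairs of overlapping peaks whose summits lay within 200 bp. The ratio of M2 to THP-1 was at least 2 at 2 pairs (in HMOX1 and NFE2L2), against 9.31% of 14301 such pairs genome-wide. It was 0.5 or less at 2 pairs (in TFRC and SQSTM1), against 14.2%. The other 12 lay within 2 times of each other, and the median was 1.16, beside 0.91 for all such pairs. In 13 of the 16 pairs M2 had the wider peak, with a median width ratio of 1.82, beside 1.39 over all pairs. The shares of all pairs with a wider M2 peak or a higher THP-1 background were not counted. Background was higher at the THP-1 summit in 15 of the 16, by a median of 2.14 times, beside 2.31 over all pairs. The signal includes this background, and its part in these ratios and in the widths and numbers of called peaks was not tested. If fragments are compared with no scaling between the libraries, every ratio rises by the same factor, the counts become 5 and 1 of 16, beside 17.4% and 7.06% of all such pairs, and the HMOX1 ratio of 0.85 and the SQSTM1 ratio of 1.00 turn above 1.

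**Figure D3:**
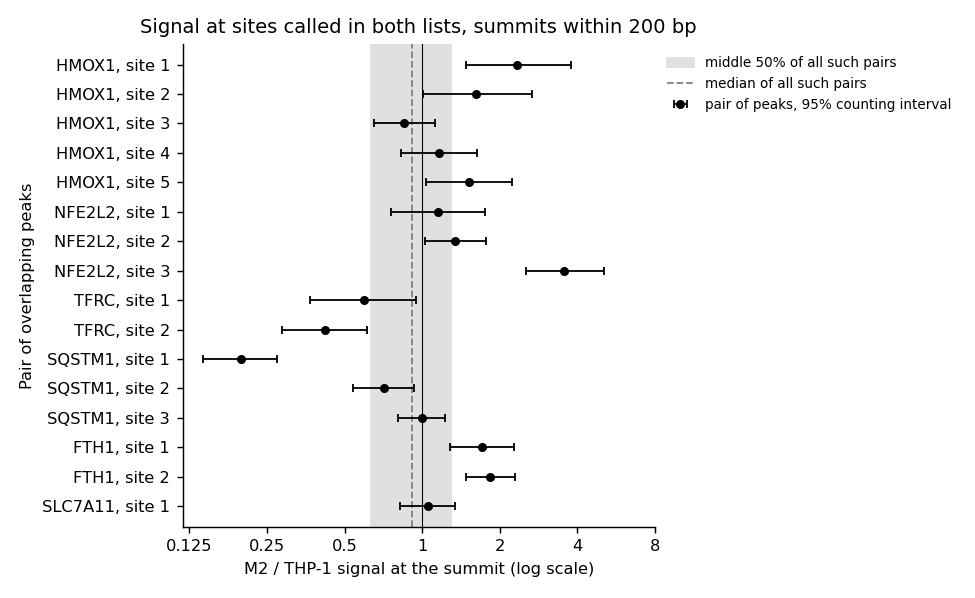
Signal at sites called in both lists. Each point is a pair of overlapping peaks with summits within 200 bp, placed by the ratio of M2 to THP-1 signal on a log axis, and the bars are 95% counting intervals. The grey band and the dashed line are the middle 50% and the median of all 14301 such pairs. Both TFRC points lie to the left of 1 and the FTH1 points to the right. The SQSTM1 points lie at 0.20, 0.71 and 1.00, and the lowest HMOX1 point at 0.85. All points run from 0.20 at the lowest to 3.56 at the highest.

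Other genes of the same pathways were read over the gene body with 10 kb on each side, and all 27 of them held an M2 peak. Of the 13 NRF2 targets and regulators, 11 had at least 2 times more covered length in M2 and 0 in THP-1 cells, beside 62.1% and 10.9% of the 50 kb tiles. The median ratio of the 11 with peaks in both was 2.69. GCLC and SRXN1 had no THP-1 peak. They encode the catalytic subunit of glutamate-cysteine ligase and sulfiredoxin, and had 4.27 and 1.81 kb in M2. GCLM, the modifier subunit of the ligase, had 2.79 kb against 0.37 kb in THP-1, a ratio of 7.54. MAFF, a small MAF partner of NRF2, had 4.46 and 0.619 kb (7.20), and thioredoxin (TXN) 4.27 and 0.66 kb (6.47). TXNRD1, thioredoxin reductase, had 7.51 kb against 1.76 kb. The 2 genes under 2 times were KEAP1, the inhibitor of NRF2, with 2.20 and 1.95 kb, and MAFG, another small MAF, with 5.23 and 3.42 kb.

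The iron and haem genes were read in the same way. Of 14, 8 had at least 2 times more covered length in M2 and 0 in THP-1 cells, again beside 62.1% and 10.9% of tiles, so that the M2 share was near the background. The median ratio of the 10 with peaks in both was 1.62. FLVCR1 (a haem exporter), ACO1 (iron regulatory protein 1), NCOA4 (the receptor for ferritin breakdown) and LCN2 (lipocalin 2) had M2 peaks only, over 1.69, 2.85, 2.97 and 0.975 kb. More THP-1 than M2 length was found at ALAS1, the first enzyme of haem synthesis, where THP-1 had 8.42 kb and M2 7.20 kb. The haem transporter SLC48A1 (4.22 and 3.64 kb) and IREB2 (iron regulatory protein 2, 2.17 and 2.03 kb) showed the same order. SLC11A1, the phagosomal metal transporter of macrophages, had the most M2 length, 8.37 kb against 4.39 kb. The NRF2 and the iron genes together gave 19 of 27 genes called in M2, a share to be read beside the 62.1% of tiles. These gene windows vary in length, while the tiles are all 50 kb.

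**Figure D4:**
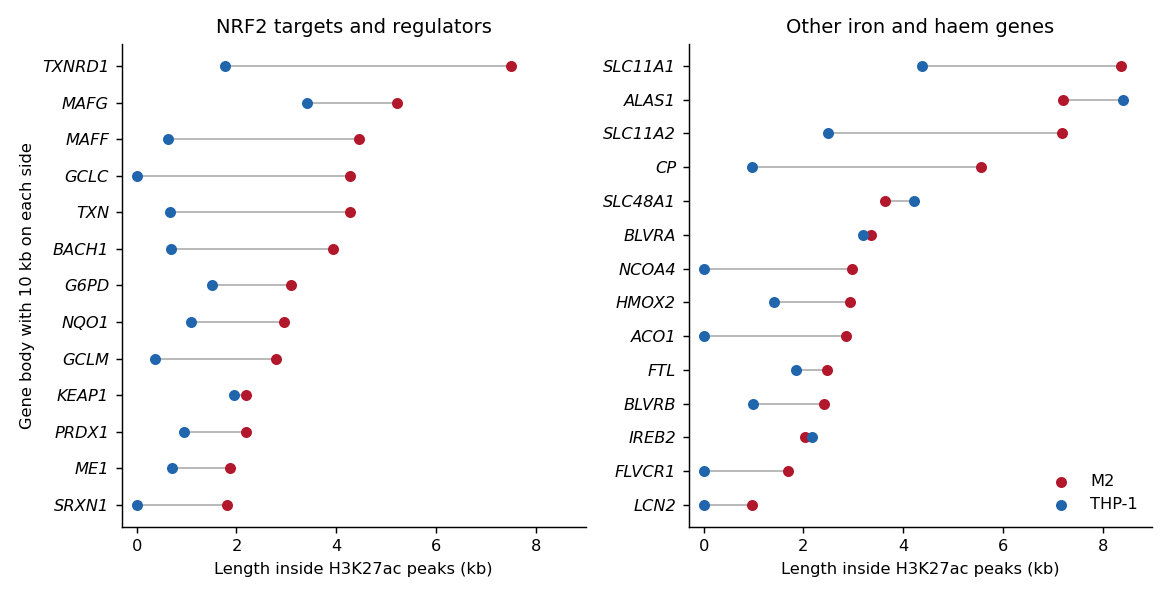
Covered length at 27 further genes. Each row is a gene body with 10 kb on each side and the horizontal axis is the kb inside H3K27ac peaks, red for M2 and blue for THP-1 cells. The blue point is at 0 for 6 genes, and lies to the right of the red point only for ALAS1, SLC48A1 and IREB2.

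The labels were checked on marker genes in the same way. Myeloid markers had peaks in M2 cells at 9 of 10 genes and in THP-1 cells at 7 of 10. CSF1R, SPI1, PTPRC, ITGAM, CD14, CD68 and CD4 were marked in both, and CD163 and LYZ in M2 only. MRC1, the mannose receptor used as an M2 marker, had no peak in either list. The hg19 assembly carries a near-identical copy of the MRC1 region, which can keep reads from being placed, and its part was not tested. Of 7 mesenchymal genes COL1A2 and COL3A1 had no peak in either list, while COL1A1 and COL6A1 had 2.04 and 3.50 kb in M2 only. COL6A2 and TWIST1 were marked in both, and PDGFRB had 19.02 kb in M2 but adjoins CSF1R. The lymphocyte gene CD3E had 1.09 kb in M2 only. Of the epithelial genes EPCAM had no peak and CDH1 had 1.66 kb in M2 beside 2.80 kb in THP-1. Summed over the myeloid list, covered length was 59.9 kb (M2) and 25.7 kb (THP-1), and over the mesenchymal list 30.1 and 8.65 kb. Of the mesenchymal sums, PDGFRB gave 19.02 and 4.38 kb. As it adjoins CSF1R, peaks between them can count in both lists. The part of other cell types in the iron gene results was not tested.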

How the data were processed

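H3K27ac was measured by ChIP-seq with paired ends, 1 library per cell type, per the labels' protocols. The tools were Bowtie2 and MACS2 2.1.0 with the build hg19, per the submitters' processing notes. Their settings and any control library are not given in the sources used here. Both lists have no header and were read as narrowPeak. The fold enrichment (a ratio at the summit over local background) and the -log10 p and -log10 q are the values the authors deposited per peak. The score the authors deposited restates the -log10 q and was left aside. The Y chromosome was left out.

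From these, Python 3.11.15 (pandas 2.3.3, SciPy 1.17.1) computed covered length clipped to each window, overlaps of at least 1 bp, and the same over 50 kb tiles. A ratio of 2 in either direction was called. Fragments were solved from fold and p-value under MACS2's usual relations. A pileup scaled by 0.842 in M2 and 1 in THP-1 gave whole numbers, within 0.02, for 99.998% and 100% of peaks, and 98.3% and 96.6% had a single solution. The steps were tested on simulated peaks. Signal is the scaled pileup over the lowest background, 1.94 and 1.77 fragments. The depth of the libraries is otherwise unknown.

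Groups came from the sample titles. Libraries of YY1 and input were not analysed here. Members and lists were chosen with earlier results of these data known. All 7 windows were named, with most of their leading peaks and some of their peaks of 1 list. Of the other genes, those with peaks in 1 list only, the highest and lowest ratios and the most covered length were named. A few more were named after their values were seen. A planned marker gene is not reported here. Positions of the 47 other gene windows are approximate hg19 positions from general knowledge. All 47 were on the chromosome that RefSeq gives, and 45 had a length within 3 kb of the RefSeq gene. Alternatives were a stricter threshold, lists of equal length, other windows, whole or merged peaks, other overlap and ranking, and other scaling of the fragments.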

Additional observations from a re-analysis of the deposited data

How the results depend on the processing

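No paired analysis was possible because each cell type had 1 library. The ratio of summed covered length was 2.29 and moved most with peaks of a -log10 q of at least 10, to 4.21. The whole lists moved from 2.19 to 3.003 at that setting, and the cause was not tested. Over all settings run HMOX1 lay between 3.33 and 19.5, NFE2L2 between 1.06 and 3.81 and SQSTM1 between 1.06 and 3.24. Over the same settings, the ratio for TFRC stayed between 0.64 and 0.92, for FTH1 between 3.46 and 5.30 and for SLC7A11 between 15.1 and 16.4. Of the M2 peaks 51.3% met a THP-1 peak, which was 28.2% when 50% of the peak had to be covered and 73.1% in lists of equal length. Over the whole M2 list these shares were 37.0%, 25.5% and 49.0%. Of the pairs with close summits, 5 in place of 2 were at least 2 times higher in M2 and 1 in place of 2 in THP-1 when fragments were not scaled, a setting chosen after the data were seen. The same holds for the setting with the median of pairs at 1 and the one without SLC7A11, where the ratio was 1.98. The SLC40A1 peak rests on 23 fragments.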
